A study of Mus musculus with 20 samples.

Results

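The 9 genes described here encode the enzymes that take stored triglyceride apart and the proteins that control them: the lipases Lipe, Pnpla2, Pnpla3 and Mgll, the lipase regulators Abhd5 and G0s2, the receptor Adrb3, the phosphodiesterase Pde3b and the glycerol channel Aqp7. They were found by their gene names in the array files, which gave 16 probes of the 41174 probes that were not controls. Each gene was described by the probe with the highest mean signal over all arrays, and its other probes were set beside it.

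Expression was measured on 20 one-colour Agilent mouse arrays with total RNA from liver and white adipose tissue (WAT) of male C57BL/6 mice aged 7 months. All had been kept for 21 weeks on a diet with 35% fat (HFD). Wild-type mice, WT(HFD), and mice without Cd44, CD44KO(HFD), gave 5 arrays each in each tissue, and no array of mice on a normal diet was analysed here. Cd44 encodes a cell surface receptor for hyaluronan, and the knockout lacks it in every cell of the body. The labels do not name the fat depot, nor which liver and WAT arrays came from one mouse, so the p-values measure the spread between these samples only.

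In a fat cell, lipolysis starts when catecholamines bind beta-adrenergic receptors, of which Adrb3 is the form typical of rodent fat. The receptor raises cAMP and activates protein kinase A, which phosphorylates hormone-sensitive lipase (Lipe) and the droplet coat protein perilipin 1 (Plin1). Perilipin then releases Abhd5, also called CGI-58, which activates adipose triglyceride lipase (Pnpla2), while G0s2 inhibits that enzyme. Pnpla2 cuts triglyceride, Lipe cuts the diglyceride and Mgll the monoglyceride, and the glycerol leaves the cell through Aqp7. Insulin opposes the pathway partly through Pde3b, which breaks cAMP down. Pnpla3, or adiponutrin, belongs to the same lipase family as Pnpla2 and is known for its rise on feeding.

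All values are log2 of the processed signal minus the same array's 75th percentile, called here the level, so a difference of 1 is a 2-fold difference. The 75th percentile ran from 433 to 575 on the liver arrays and from 1541 to 2792 on the WAT arrays, and 57.4% to 61.9% of spots in liver and 63.2% to 69.5% in WAT were well above background, except on WT(HFD) WAT array 1 with 89.5%. That array also correlated less with its group (mean r = 0.88, against 0.943 to 0.956 for the other WT(HFD) WAT arrays), and the WAT counts below were also taken without it. Cd44 itself, by its brightest probe, lay between 3.55 and 4.56 in WT(HFD) WAT and between -0.67 and -0.35 in CD44KO(HFD) WAT, and between 0.11 and 0.83 against -4.19 to -3.24 in liver, as the labels say. A gene was tested in a tissue where 3 or more of the 5 arrays of a genotype had its probe well above background, and a call was an adjusted p under 0.05 (limma, Benjamini-Hochberg over all probes tested).

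In WAT, all 9 genes had a higher mean level in CD44KO(HFD) than in WT(HFD), by 0.24 to 0.79 on the log2 scale with a median of 0.53, and none of them passed the test (adjusted p from 0.192 to 0.623, limma). The median over all 27653 probes tested was -0.06, and 44.7% of them had a higher mean in CD44KO(HFD). The threshold was hard to reach in this tissue, since only 0.0108% of all probes were called higher and 0.0289% lower, while 4111 probes had an unadjusted p under 0.05. Of the 9 genes, 6 had an unadjusted p under 0.05 by limma (Pnpla2, Pnpla3, Mgll, G0s2, Pde3b and Aqp7). By the exact permutation test 5 were under 0.05, since Pde3b gave 0.0635. In 3 of the 9 genes, Pnpla2, Pnpla3 and Aqp7, each CD44KO(HFD) array lay above each WT(HFD) array, which held for 4.07% of all probes.

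**Figure D1:**
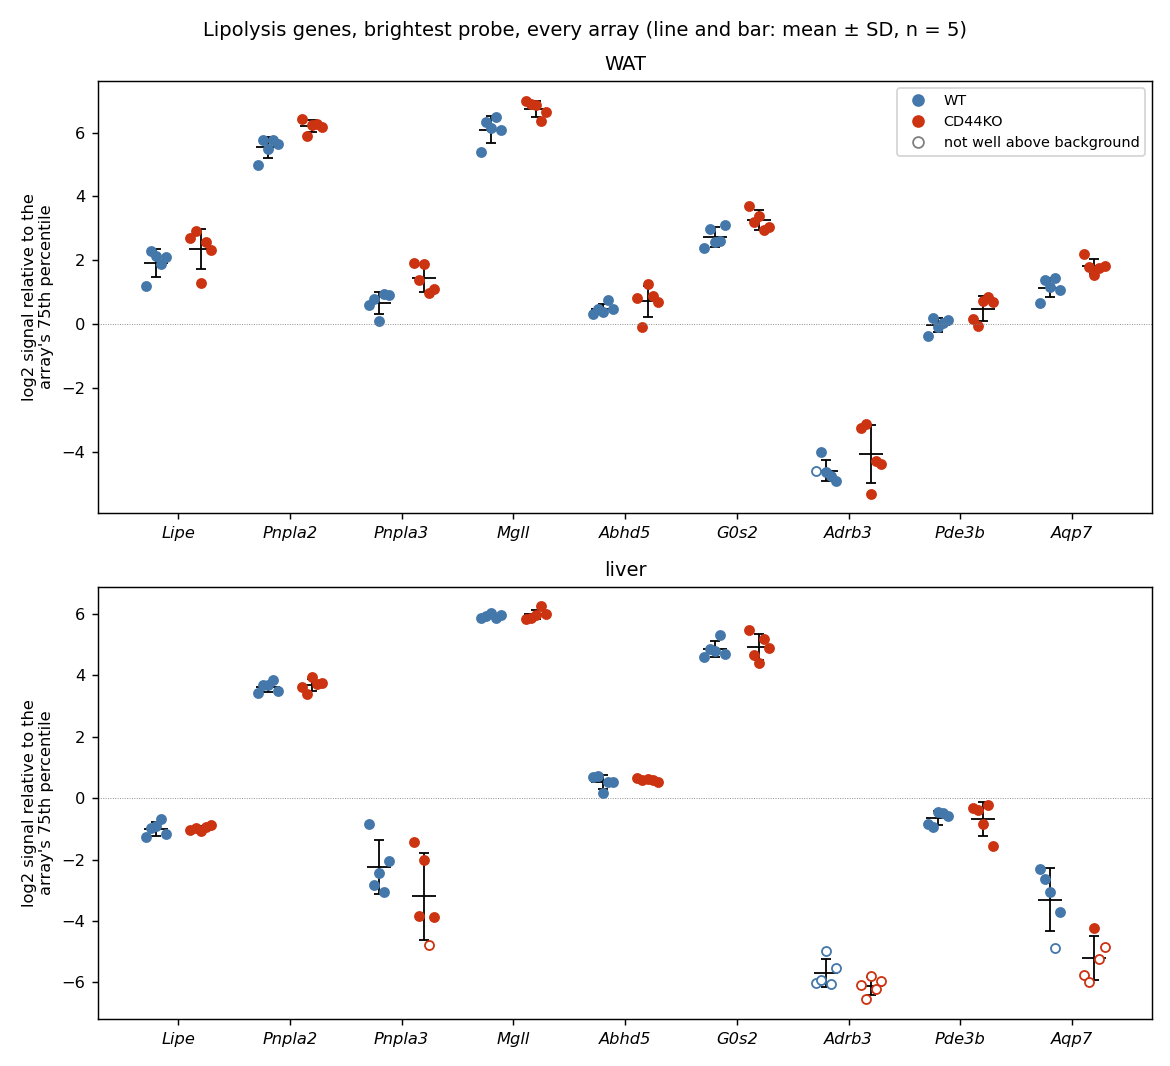
Level of each of the 9 genes on every array, as log2 signal relative to the array's 75th percentile (vertical axis), for WT(HFD) and CD44KO(HFD) in WAT and liver. Each point is 1 array open points are not well above background, and the line and bar give the group mean ± SD (n = 5). In WAT the CD44KO(HFD) points of Pnpla2, Pnpla3 and Aqp7 all sit above the WT(HFD) points, and in liver the Aqp7 points of CD44KO(HFD), from -5.98 to -4.22, sit mostly below those of WT(HFD), from -4.89 to -2.31.

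Among the lipases, Pnpla2, which starts the breakdown of triglyceride, had levels of 4.99, 5.78, 5.49, 5.77 and 5.65 in WT(HFD) WAT and of 6.44, 5.90, 6.23, 6.28 and 6.17 in CD44KO(HFD) WAT. The lowest CD44KO(HFD) array thus stood above the highest WT(HFD) array, and WT(HFD) array 1 was the lowest of all. The difference was 0.67 with a standard error of 0.19 (95% CI 0.25 to 1.08), or 1.59-fold, with an adjusted p of 0.195 (limma) and an exact permutation p of 0.0079, the smallest that 5 against 5 arrays allow. Its other probe gave 0.53 (adjusted p = 0.318, limma), with overlapping groups.

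Lipe, hormone-sensitive lipase, was at 1.19, 2.30, 2.15, 1.87 and 2.11 in WT(HFD) WAT and at 2.70, 2.92, 1.29, 2.56 and 2.32 in CD44KO(HFD) WAT. CD44KO(HFD) array 3 lay among the lowest values of both groups, and the other 4 CD44KO(HFD) arrays lay above each WT(HFD) array. The difference of 0.43 (95% CI -0.29 to 1.16, adjusted p = 0.528, limma) was within the spread between arrays, and without that array it was 0.70 (adjusted p = 0.298, limma). The other Lipe probe gave 0.43 as well.

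Mgll, which releases the last fatty acid, had levels of 5.38, 6.34, 6.14, 6.50 and 6.09 in WT(HFD) WAT against 6.98, 6.90, 6.85, 6.35 and 6.65 in CD44KO(HFD) WAT. The groups overlapped in CD44KO(HFD) array 4 alone. The difference was 0.66 (95% CI 0.16 to 1.16, adjusted p = 0.241, limma). Of its other probes, one gave 0.76 with no overlap between the groups (adjusted p = 0.234, limma), and the one designed on a testis cDNA, far dimmer, gave 0.60 (adjusted p = 0.487, limma).

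Pnpla3 had the largest difference of the 9, 0.79 (95% CI 0.24 to 1.33), or 1.72-fold, with an adjusted p of 0.216 (limma) and an exact permutation p of 0.0079. Its levels were 0.61, 0.77, 0.10, 0.94 and 0.91 in WT(HFD) WAT and 1.92, 1.37, 1.88, 0.99 and 1.10 in CD44KO(HFD) WAT. The gap between the groups was small, since 0.99 in the lowest CD44KO(HFD) array stood next to 0.94 in the highest WT(HFD) array.

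Of the regulators of Pnpla2, the inhibitor G0s2 had levels of 2.39, 2.98, 2.57, 2.59 and 3.11 in WT(HFD) WAT and of 3.71, 3.21, 3.38, 2.94 and 3.05 in CD44KO(HFD) WAT. CD44KO(HFD) arrays 4 and 5 lay within the WT(HFD) range and the other 3 above it. The difference was 0.53 (95% CI 0.08 to 0.98, adjusted p = 0.269, limma).

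The co-activator Abhd5 had levels of 0.31, 0.46, 0.37, 0.74 and 0.48 in WT(HFD) WAT and of 0.83, -0.10, 1.24, 0.88 and 0.69 in CD44KO(HFD) WAT. Array 2 of CD44KO(HFD) was the lowest of the 10 and array 3 the highest, while arrays 1 and 4 also lay above the WT(HFD) range and array 5 within it. The difference was 0.24 (95% CI -0.28 to 0.76, adjusted p = 0.623, limma). The other Abhd5 probe, nearer the end of the gene in the direction of transcription, gave 0.55 (95% CI 0.19 to 0.91, adjusted p = 0.208, limma), with WT(HFD) arrays from 1.02 to 1.56 and CD44KO(HFD) arrays from 1.48 to 2.08.

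Of the genes that set the cAMP signal, Pde3b had levels of -0.37, 0.18, -0.09, 0.02 and 0.11 in WT(HFD) WAT and of 0.17, -0.05, 0.71, 0.86 and 0.68 in CD44KO(HFD) WAT. CD44KO(HFD) arrays 1 and 2 lay within the WT(HFD) range and the other 3 above it. The difference was 0.50 (95% CI 0.04 to 0.96, adjusted p = 0.306, limma). Its other probe, designed on the opposite strand, was well above background on WT(HFD) array 1 alone and was not tested.

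Adrb3 was read by a probe that the array names for the beta-3b splice variant of the receptor. The 60 bases of that probe, shown because the level belongs to what they bind, lie on chr8:25982417-25982836 of mm7, on the minus strand, across an intron.

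Adrb3 probe: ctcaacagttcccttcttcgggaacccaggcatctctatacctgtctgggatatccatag

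The Adrb3 probe was dim, at -4.62, -4.02, -4.64, -4.77 and -4.90 in WT(HFD) WAT, where 4 arrays were well above background, and at -3.25, -3.12, -5.31, -4.28 and -4.38 in CD44KO(HFD) WAT, where all 5 were. CD44KO(HFD) arrays 1 and 2 stood above all others and array 3 was the lowest, so the difference of 0.52 (95% CI -0.36 to 1.41, adjusted p = 0.535, limma) was within the spread. Whether other transcripts of Adrb3 behaved in the same way was not measured by this probe.

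Aqp7, the channel through which adipocytes release glycerol, had levels of 0.66, 1.37, 1.18, 1.43 and 1.06 in WT(HFD) WAT and of 2.18, 1.79, 1.54, 1.74 and 1.82 in CD44KO(HFD) WAT. Every CD44KO(HFD) array lay above every WT(HFD) array. The difference was 0.67 with a standard error of 0.19 (95% CI 0.26 to 1.09), or 1.59-fold (adjusted p = 0.192, limma, exact permutation p = 0.0079). Its other probe gave 0.71, also with no overlap (adjusted p = 0.199, limma).

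**Figure D2:**
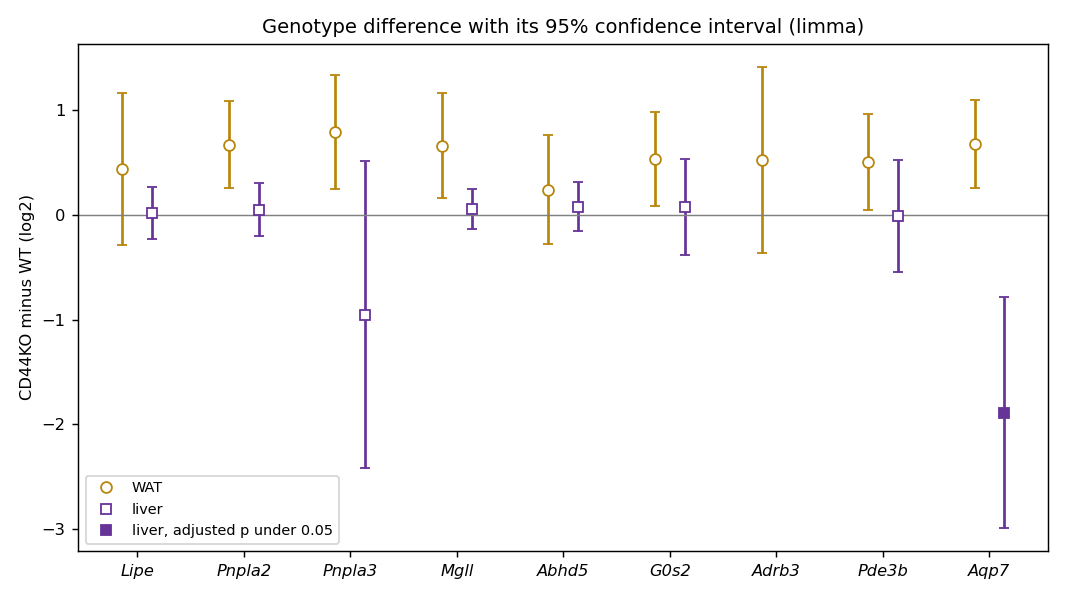
Difference of the CD44KO(HFD) from the WT(HFD) mean level (log2, vertical axis) for the brightest probe of each gene in WAT and liver. Points are the limma estimates and bars their 95% confidence intervals, with calls filled. The 9 points of WAT lie between 0.24 and 0.79, and the liver point of Aqp7, at -1.89, is the only one whose call passed the threshold.

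Without WT(HFD) array 1, the Lipe difference in WAT was 0.25 in place of 0.43. Without that array all 9 genes were higher in CD44KO(HFD), by 0.20 to 0.77, the groups of 3 genes did not overlap, and none passed the test. Leaving out CD44KO(HFD) array 3 as well was not planned, and that array was the lowest of its group in Lipe and Adrb3. All 9 were then higher and 4 did not overlap. That count follows in part from the choice of array and has no share of all probes beside it, so it is no separate check. The arrays lay on 6 slides, and 2 of the 3 WAT slides held both genotypes. Within both of these slides Pnpla2 (0.65 and 0.59), Pnpla3 (0.46 and 1.29), Mgll (0.84 and 0.66), G0s2 (0.64 and 0.49), Pde3b (0.49 and 0.64) and Aqp7 (0.76 and 0.33) were higher in CD44KO(HFD). The WT(HFD) arrays of the first slide were arrays 1 and 4. Array 1 lay below array 4 in each of the genes just named, which enlarged the differences on that slide. Lipe (1.09 and -0.89), Abhd5 (-0.23 and 0.81) and Adrb3 (0.94 and -0.79) had opposite signs on the 2 slides, the second of which held a single CD44KO(HFD) array, array 3.

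Scaling the arrays in another way moved the median of all probes in WAT by 0.17 with quantile normalization and by 0.48 with each array centred on its median. Relative to the median of all probes, the 9 genes were higher in CD44KO(HFD) by 0.30 to 0.85 in the main scaling. They were higher by 0.21 to 0.96 after normexp background correction and by 0.08 to 1.05 after quantile normalization. Centring on the median shifts all probes of an array alike, so its 0.30 to 0.85 repeats the main scaling by construction and is no separate check.

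Several cell type markers moved in the same samples. The WAT arrays carried the markers of adipocytes, with all 8 (Adipoq, Cfd, Retn, Fabp4, Plin1, Lep, Slc2a4 and Pparg) well above background on each array. Each of the 8 had a higher mean in CD44KO(HFD) WAT, with a median difference of 0.77, none past the test. The log2 of their summed signal ran from 8.63 to 9.33 in WT(HFD) and from 9.09 to 9.95 in CD44KO(HFD). In such bulk RNA, fewer cells of a type and less RNA per cell cannot be told apart.

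The 8 endothelial markers were all higher too (median 0.66, summed level 4.22 to 4.98 in WT(HFD) and 5.15 to 6.28 in CD44KO(HFD)), as were all 7 hepatocyte markers found (median 0.81). The 8 mesothelium markers were all lower in CD44KO(HFD) WAT (median -2.12, summed level 1.59 to 3.80 against 0.34 to 2.14), as were the 8 T cell markers (median -1.40, summed level 0.07 to 2.91 against -0.69 to 0.35) and 7 of 8 macrophage markers (median -0.44, summed level 8.42 to 8.87 against 8.39 to 8.81). Of the brown adipocyte markers, 5 of the 7 tested were higher (median 0.45), and of the exocrine pancreas markers, 2 of the 4 tested. All 7 epididymis markers found were well above background on WT(HFD) array 1, with a summed level of 1.21, against -4.61 to -3.89 on the other WT(HFD) and -4.39 to -2.18 on the CD44KO(HFD) arrays. CD44KO(HFD) arrays 1 and 2 came next, at -2.18 and -2.38, with 3 and 5 of the 7 epididymis markers well above background. None of these markers passed the test in WAT, and their part in the differences of the lipolysis genes was not tested.

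**Figure D3:**
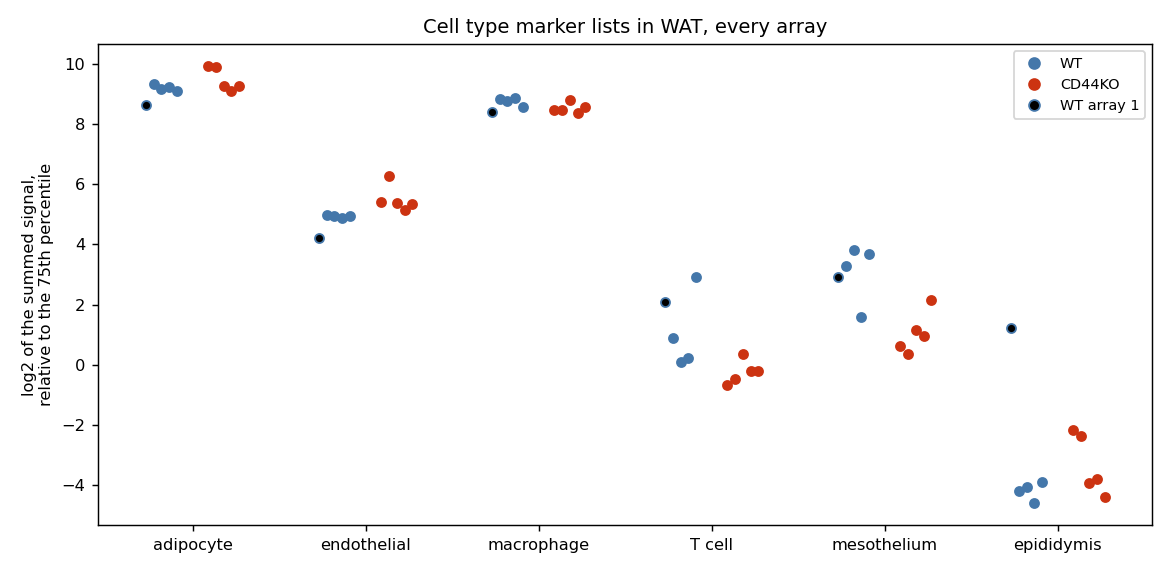
Summed level of each cell type's marker genes on every WAT array (log2 of the summed signal relative to the array's 75th percentile, vertical axis), by genotype. Each point is 1 array. The endothelial points of CD44KO(HFD) all lie above those of WT(HFD). Of its adipocyte points, those of arrays 1 and 2 lie above the WT(HFD) range and the rest within it. The mesothelium and T cell points of CD44KO(HFD) lie mostly below those of WT(HFD), and WT(HFD) array 1 stands apart in the epididymis list at 1.21.

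In liver, Aqp7 was the only one of the 9 genes called by its brightest probe. It had levels of -2.31, -2.62, -3.05, -4.89 and -3.71 in WT(HFD) and of -5.75, -5.98, -4.22, -5.24 and -4.83 in CD44KO(HFD). WT(HFD) array 4 lay inside the CD44KO(HFD) range and the other 4 WT(HFD) arrays above it. The difference was -1.89 (standard error 0.49, 95% CI -2.99 to -0.79, adjusted p = 0.0346, limma, exact permutation p = 0.0238). These are low signals: the probe was well above background on 4 of the WT(HFD) and 1 of the CD44KO(HFD) arrays. Aqp7 therefore entered the liver test through WT(HFD) alone, and the size of the difference depends on signals near background, so no fold is given.

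The other Aqp7 probe was well above background on 4 WT(HFD) and on 0 CD44KO(HFD) liver arrays, so that it gives only a bound. Its signal was at least 2.13-fold lower in CD44KO(HFD). The bound is the WT(HFD) mean against, on each CD44KO(HFD) array, the higher of the probe's own signal and the dimmest signal still well above background. The adjusted p of 0.0274 (limma) belongs to the probe's own signals, none well above background in CD44KO(HFD), and not to the bound. This probe too entered the test through WT(HFD) alone. Both Aqp7 probes lie on the minus strand of chromosome 4 of mm7, at chr4:41172651-41172710 and chr4:41172673-41172732, and share 38 bases, so they are not independent readings. They differ in 1 of those bases, given in capitals in the stretch below and written as A16G, counted from the 5′ end of the stretch, with the brighter probe's base first.

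A_51_P378063: gtagagcttctctttAaccacaaccgtact

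A_52_P403405: gtagagcttctctttGaccacaaccgtact

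Aqp7 was lower in CD44KO(HFD) on all 3 liver slides, with differences of -1.85 and -1.52 on those with 2 arrays of each genotype and of -2.70 on the one with 1 of each. The call did depend on the arrays and on the handling of dim spots. When single arrays were dropped, it passed in 2 of 10 fits, those without WT(HFD) array 4 or without CD44KO(HFD) array 3, and the adjusted p in the other 8 ran up to 0.0834 (limma). After normexp background correction, which draws dim signals together, the difference was -0.40 (adjusted p = 0.479, limma).

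Some adipocyte markers were also present in liver. Of the 8, 4 to 6 were well above background on a given array, with a summed level of 4.64 to 5.22 in WT(HFD) and of 3.65 to 4.98 in CD44KO(HFD). The leptin gene Lep was well above background on none of the 10 liver arrays, and the defining adipocyte gene Plin1 was well above background on 1 array of each genotype (WT(HFD) mean -5.20, CD44KO(HFD) mean -5.22). Of the 4 adipocyte markers tested in liver, 3 had a lower and 1 a higher mean in CD44KO(HFD), with a median difference of -0.43. None of the 4 passed the test, and their part in the Aqp7 difference was not tested.

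None of the other 7 genes tested in liver was called by its brightest probe, and Adrb3 was not tested. The 1 gene called lower among the 8 tested stands beside 5.75% of all 24689 probes tested that were called lower and 7.85% that were called higher. The number of probes called, 3358, ran from 924 (without WT(HFD) array 2) to 4695 (without CD44KO(HFD) array 3) with an array left out and was 641 after normexp background correction. Of all calls, 57.7% were higher in CD44KO(HFD) in the main scaling and 33.7% after normexp background correction. The median difference of the 8 tested genes was 0.03, beside 0.08 for all probes, and relative to the latter 1 of the 8 was higher in CD44KO(HFD).

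For 3 of the liver lipases, Pnpla2, Lipe and Mgll, the intervals were narrow. Pnpla2 was at 3.63 ± 0.16 (SD, n = 5) in WT(HFD) and 3.68 ± 0.20 in CD44KO(HFD), a difference of 0.05 with a 95% CI of -0.21 to 0.31. Lipe differed by 0.02 (95% CI -0.23 to 0.27) and Mgll by 0.05 (95% CI -0.14 to 0.25), from levels of 5.93 ± 0.07 (SD, n = 5) in WT(HFD) and 5.99 ± 0.16 in CD44KO(HFD). The WAT estimates of Pnpla2 (0.67) and Mgll (0.66) lay outside these intervals. Their own WAT intervals, 0.25 to 1.08 and 0.16 to 1.16, overlapped them, and the test between tissues given below did not pass for either gene. In liver the other Pnpla2 probe gave 0.12 (95% CI -0.11 to 0.35) and the other Lipe probe 0.05 (95% CI -0.23 to 0.33). The Mgll probe across an intron had the opposite sign, -0.13 (95% CI -0.34 to 0.08), and the dim Mgll probe was not tested.

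Pnpla3 varied most between liver arrays, with levels of -0.84, -2.82, -2.44, -3.07 and -2.05 in WT(HFD) and of -1.43, -3.85, -2.03, -4.80 and -3.89 in CD44KO(HFD). CD44KO(HFD) arrays 2, 4 and 5 lay below all WT(HFD) arrays and the other 2 lay within their range. The difference of -0.95 (95% CI -2.42 to 0.51, adjusted p = 0.346, limma) was within the spread.

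Among the regulators in liver, G0s2 differed by 0.07 (95% CI -0.38 to 0.53, adjusted p = 0.837, limma), from 4.86 ± 0.27 (SD, n = 5) to 4.93 ± 0.42. Pde3b differed by -0.01 (95% CI -0.55 to 0.53), and Adrb3 was not well above background on any liver array. For Abhd5 the probes disagreed. The brightest one differed by 0.08 (95% CI -0.16 to 0.31, adjusted p = 0.656, limma), whereas the other had levels of -0.42, -0.47, -0.14, -0.42 and -0.34 in WT(HFD) and of -0.79, -0.58, -0.68, -0.50 and -0.79 in CD44KO(HFD). There the groups did not overlap, as for 4.22% of all probes in this direction, and the level was called lower in CD44KO(HFD) (difference -0.31, 95% CI -0.51 to -0.11, adjusted p = 0.0475, limma), or 1.24-fold.

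**Figure D4:**
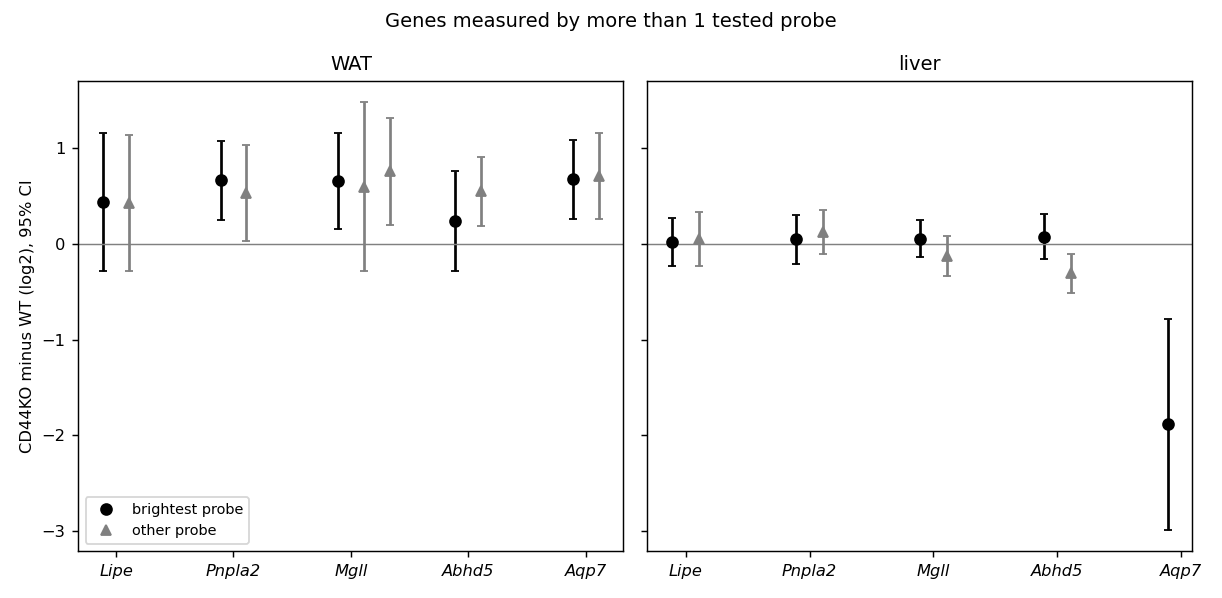
Difference of the CD44KO(HFD) from the WT(HFD) mean level (log2, vertical axis) for every tested probe of the genes with more than 1 tested probe, in WAT and liver, with 95% confidence intervals from limma. The WAT points all lie above 0. A probe well above background on no array of a genotype, as the second Aqp7 probe in liver, is left out. In liver the brightest Aqp7 probe lies at -1.89, and the Abhd5 probes fall on both sides of 0, at 0.08 and -0.31.

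Whether the genotype acted differently in the tissues was tested as the WAT difference minus the liver difference, over all 20 arrays. Aqp7 passed, with 2.56 (95% CI 1.39 to 3.73, adjusted p = 0.0368, limma) by its brightest probe, a value whose liver part rests on CD44KO(HFD) signals above background on 1 of 5 arrays. It was the single gene of 9 called by its brightest probe, beside 0.873% of all 28988 probes called in this direction. The slide as a block left 2.46 for the brightest probe (adjusted p = 0.0502, limma), and when single arrays were dropped the call was kept in 8 of 20 fits. After normexp background correction it was 1.05 (adjusted p = 0.169, limma).

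The second Abhd5 probe also passed, with 0.86 (95% CI 0.48 to 1.23, adjusted p = 0.0307, limma), but the brightest Abhd5 probe did not, with 0.16 (adjusted p = 0.78, limma). Of the lipases, Pnpla3 gave 1.74 (95% CI 0.18 to 3.30, adjusted p = 0.263, limma), Pnpla2 0.62 (adjusted p = 0.166, limma), Mgll 0.60 (adjusted p = 0.23, limma) and Lipe 0.41 (adjusted p = 0.586, limma). None of these passed, nor did G0s2 with 0.45 (adjusted p = 0.468, limma), Pde3b with 0.51 (adjusted p = 0.463, limma) or Adrb3 with 0.94 (adjusted p = 0.351, limma).

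The levels of 7 of the 9 genes differed between the tissues of WT(HFD) mice, 6 of them higher in WAT, among them Adrb3, which entered the test through WAT alone, and 1 higher in liver, beside 34.3% of all probes called higher and 36.2% called lower in WAT. Tissue and slide cannot be told apart here, since liver and WAT arrays never shared a slide. Aqp7 stood furthest apart, at 1.14 ± 0.31 (SD, n = 5) in WAT and -3.32 ± 1.02 in liver, a difference of 4.46 (adjusted p = 8.65e-09, limma). Its order over the 4 groups ran from CD44KO(HFD) WAT and WT(HFD) WAT to WT(HFD) liver and CD44KO(HFD) liver, and of the neighbours those in WAT did not pass the test.

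Lipe was higher in WAT by 2.92 (7.57-fold, adjusted p = 5.67e-09, limma), Pnpla3 by 2.91 (7.51-fold, adjusted p = 7.45e-05, limma) and Pnpla2 by 1.91 (3.75-fold, adjusted p = 2.23e-09, limma). G0s2 went the other way, with WT(HFD) WAT at 2.73 ± 0.30 (SD, n = 5) and WT(HFD) liver at 4.86 ± 0.27, a difference of -2.13 (4.37-fold, adjusted p = 3.49e-08, limma). The inhibitor thus had its higher level in liver, and the enzyme it inhibits in WAT.

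Pde3b was higher in WAT by 0.63 (adjusted p = 0.0227, limma), a call that was lost under quantile normalization (0.53, adjusted p = 0.0586, limma), under centring on the median (0.52, adjusted p = 0.269, limma) and without WT(HFD) liver array 2 (0.55, adjusted p = 0.0572, limma) or WT(HFD) WAT array 2 (0.57, adjusted p = 0.0517, limma). Adrb3, not well above background in liver, was at least 1.13-fold higher in WAT but entered the test through WAT alone, and after normexp background correction the sign turned (-0.67).

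For Mgll and Abhd5 the tissue difference depended on the probe. The brightest Mgll probe differed by 0.16 (adjusted p = 0.422, limma), and one of the others was lower in WAT (difference -0.56, adjusted p = 0.0142, limma). The dim one, not well above background in liver, was at least 1.53-fold higher in WAT and entered the test through WAT alone. Its adjusted p of 5.44e-07 (limma) belongs to the probe's own signals and not to that bound. The Abhd5 probes gave -0.05 (adjusted p = 0.811, limma) and 1.58 (adjusted p = 1.99e-09, limma). No direction between tissues can therefore be given for these genes as wholes.

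The wider pathway was read from 6 lists with 118 genes, of which 115 were on the array. In WAT, 112 were tested and 0 passed the test (limma), while their lowest adjusted p was 0.165. Lipid droplet proteins had the highest median difference, 0.46, with 11 of 12 tested higher in CD44KO(HFD). Fatty acid and glycerol handling had a median of 0.22 with 13 of 17 higher, antilipolytic receptors and insulin signalling 0.17 with 11 of 15, and transcriptional regulators 0.10 with 10 of 15. The cAMP signalling genes (median 0.08, 18 of 31 higher) and the other lipases and esterases (0.03, 11 of 22 higher) lay nearest to the median of all probes.

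Named genes of these lists in WAT included Plin1, which guards the droplet from lipases, with 5.39 ± 0.41 (SD, n = 5) in WT(HFD) and 6.22 ± 0.36 in CD44KO(HFD), a difference of 0.83 without overlap (adjusted p = 0.204, limma). Pparg, the main transcription factor of adipocytes, differed by 0.63 without overlap (adjusted p = 0.225, limma). Prkar2b, the regulatory subunit of protein kinase A in fat, differed by 0.56 (adjusted p = 0.267, limma), Cidec, which enlarges droplets, by 0.40 (adjusted p = 0.413, limma), and Hilpda, an inhibitor of Pnpla2, by 0.23 (adjusted p = 0.715, limma).

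Lpl, which frees fatty acids from lipoproteins, differed in WAT by 0.40 (adjusted p = 0.41, limma) and the carboxylesterase Ces1d by 0.55 (adjusted p = 0.40, limma). The lysosomal lipase Lipa differed the other way, by -0.73 (adjusted p = 0.198, limma), as did the insulin receptor Insr by -0.97 (adjusted p = 0.569, limma). Insr was dim, at -4.75 ± 1.99 (SD, n = 5) in WT(HFD) and -5.73 ± 0.36 in CD44KO(HFD), so its difference was within the spread. Foxo1, a transcription factor that insulin holds in check, differed by 0.09 (adjusted p = 0.884, limma).

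In liver, 103 of the list genes were tested, 7 were called higher in CD44KO(HFD) and 11 lower, beside 7.85% and 5.75% of all probes. The counts of each list below stand against the same shares, and none is read as particular to a list. Of the other lipases and esterases, 2 of 23 rose and 3 fell, again beside 7.85% and 5.75% of all probes. Ces2a, a carboxylesterase, rose by 0.87 (adjusted p = 0.0164, limma) and Aadac, which hydrolyses lipids in the endoplasmic reticulum, by 0.37 (adjusted p = 0.0259, limma). The Pnpla2 inhibitor Hilpda fell from 1.26 ± 0.20 (SD, n = 5) to 0.56 ± 0.22, a difference of -0.70 (adjusted p = 0.0146, limma). Lipa fell by 0.48 (adjusted p = 0.0103, limma) and Ces1g fell by 0.30 (adjusted p = 0.0304, limma). Lpl with -1.09 (adjusted p = 0.0682, limma) and Ces1d with 0.30 (adjusted p = 0.0568, limma) did not pass.

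Lipid droplet proteins had the lowest median in liver, -0.35, with 1 of 12 called higher and 3 lower. Cidec fell from 6.20 ± 0.24 (SD, n = 5) to 4.08 ± 1.55 (adjusted p = 0.0486, limma). Cavin1, a caveola coat protein, fell by 0.52 (adjusted p = 0.026, limma) and Plin5, the droplet coat protein of tissues that burn fat, fell by 0.34 (adjusted p = 0.0457, limma), while Cideb, which acts in lipoprotein loading, rose by 0.34 (adjusted p = 0.0416, limma). Plin1 was not tested in liver.

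Of 28 cAMP signalling genes tested in liver, 0 rose and 3 fell (median -0.08), beside 7.85% and 5.75% of all probes. These were the inhibitory G protein subunits Gnai1 (-0.67, adjusted p = 0.0146, limma) and Gnai2 (-0.34, adjusted p = 0.0276, limma), which lower cAMP production, and the cAMP phosphodiesterase Pde4a (-0.67, adjusted p = 0.0278, limma). Prkar2b (-0.49, adjusted p = 0.0783, limma) did not pass.

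Of the 11 antilipolytic receptor and insulin signalling genes tested in liver (median 0.16), Irs1 rose by 0.31 (adjusted p = 0.0321, limma) and Pik3r1, a subunit of the kinase that acts below it, fell by 0.61 (adjusted p = 0.0481, limma), while Insr gave 0.10 (adjusted p = 0.662, limma). Of 15 fatty acid and glycerol handling genes (median -0.02), Acsl1, which activates fatty acids, rose by 0.59 (adjusted p = 0.0284, limma), and Pdk4, which blocks pyruvate oxidation when fat is burnt, fell by 1.18 (adjusted p = 0.0122, limma). Of 14 transcriptional regulators (median 0.11), Srebf1, a driver of fatty acid synthesis, rose by 0.55 (adjusted p = 0.0448, limma) and Cebpa by 0.28 (adjusted p = 0.0384, limma), while Pparg gave -0.29 (adjusted p = 0.249, limma) and Foxo1 0.16 (adjusted p = 0.554, limma).

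Markers of other cells moved in liver as well. All 7 hepatocyte markers found were well above background on every liver array and higher in CD44KO(HFD), 1 of them past the test. Of 8 macrophage markers 3 were called lower (median -0.68), and of 8 T cell markers 5 were called lower (median -0.79). Of the other lists, 1 of 5 mesothelium markers tested was called lower, 1 of 3 exocrine pancreas markers was called higher, and no endothelial, adipocyte, brown adipocyte or epididymis marker was called. Their part in the liver calls above was not tested. The count of 18 list genes called in liver also moved with single arrays, as set out with the other alternatives.

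**Figure D5:**
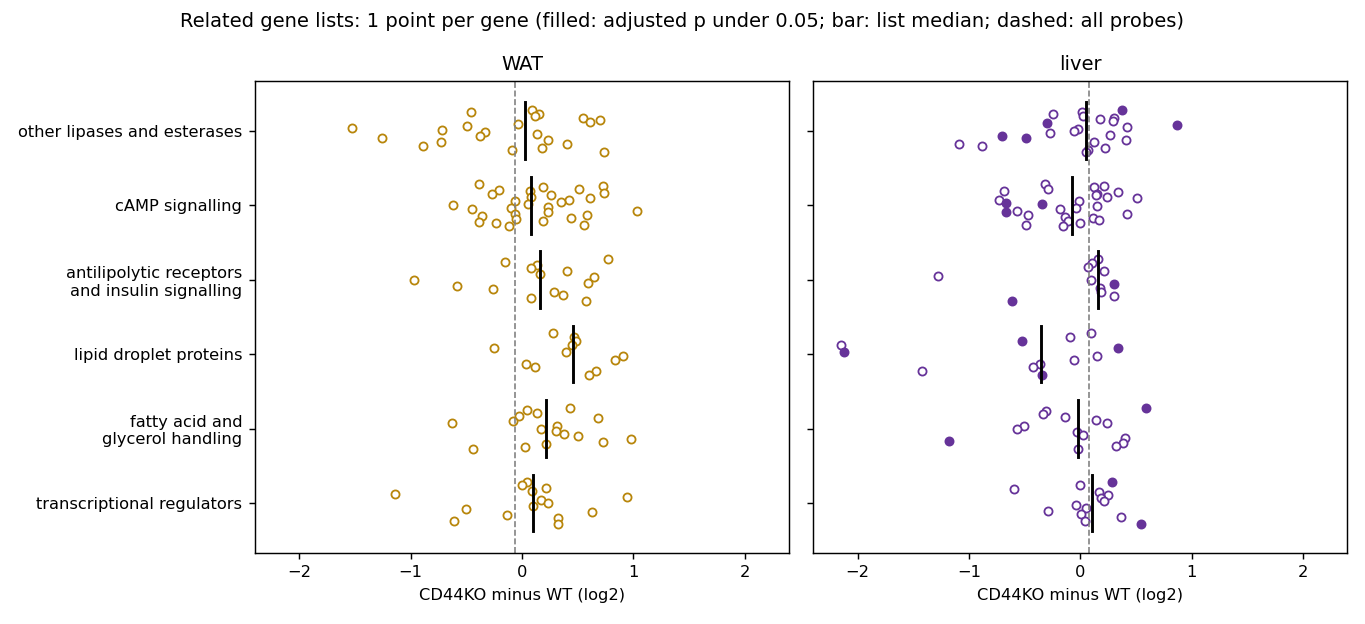
Difference of the CD44KO(HFD) from the WT(HFD) mean level (log2, horizontal axis) for the tested genes of the 6 pathway lists in WAT and liver. Each point is 1 gene, the bar the median of the list and the dashed line the median of all probes, and filled points mark calls. The droplet proteins have the highest median in WAT, 0.46, and the lowest in liver, -0.35, and all 18 calls lie in liver.

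As a description of the pattern over arrays, the genes most like each lipolysis gene were ranked by Pearson's r over the 10 arrays of a tissue, which share depth, scaling and cell make-up and carry no test. In WAT the closest to Pnpla2 were Hsdl2 (r = 0.987), Pter (0.985) and Mmd (0.977). Closest to Lipe were Hspa12a (0.977), Inpp5a (0.974) and Hspb8 (0.969), and to Mgll Pmvk (0.987), Upf3a (0.986) and Ndufb3 (0.984). Pnpla3 was most like Dhx33 (0.978), Usp20 (0.97) and Car5b (0.957). No lipolysis gene was among the 3 closest to another.

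For the regulators and the channel, G0s2 in WAT was most like Fam149a (0.967), Ddr1 (0.962) and Setd7 (0.962), and Abhd5 most like Coq10b (0.977), Otud6b (0.969) and Cdc73 (0.96). Pde3b was closest to Rreb1 (0.948), Clpx (0.935) and Nckap1 (0.931), and Adrb3 to Yod1 (0.954), Camk2n2 (0.942) and Prrg2 (0.933). Aqp7 in WAT was closest to Prss36 (0.983) and Gid4 (0.979), followed by a transcript without a gene symbol.

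In liver, Aqp7 was most like Fkbp1a (r = 0.995), Gipc2 (0.99) and Plscr1 (0.989). Pnpla3 was most like Dcbld1 (0.96), Nup35 (0.955) and Acaca (0.955), the last of which encodes acetyl-CoA carboxylase, the committing enzyme of fatty acid synthesis. Closest to Lipe were Crebrf (0.942), Lcorl (0.919) and Rps4x (0.913), to Abhd5 Pon2 (0.963), Hdac8 (0.95) and Gmds (0.942), and to Pde3b Lage3 (0.943), Smoc1 (0.923) and Polr2f (0.92). The list for Pnpla2 held Grpel2 (0.936) and Serpinb8 (0.918), that for Mgll Fbxl17 (0.93) and Ttpa (0.915), and that for G0s2 Swap70 (0.932) and Cenpq (0.926), each beside 1 entry named only by a transcript or clone.

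The sequence before the start site is given for the 3 genes whose groups did not overlap in WAT, with the letters of any motif searched for in capitals. The windows are the 250 bases upstream of the annotated start, from RefSeq on GRCm38.p6, and 7 of the 9 genes had at least 1 such window. Pnpla2 is read from chr7:141454938-141455187 on the plus strand, Pnpla3 from chr15:84167566-84167815 on the plus strand and Aqp7 from chr4:41048137-41048386 on the minus strand.

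Pnpla2: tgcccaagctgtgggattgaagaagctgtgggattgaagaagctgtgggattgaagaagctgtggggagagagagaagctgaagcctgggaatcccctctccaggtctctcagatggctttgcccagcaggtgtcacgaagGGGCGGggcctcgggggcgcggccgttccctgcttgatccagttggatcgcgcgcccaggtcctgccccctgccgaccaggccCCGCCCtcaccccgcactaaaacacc

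Pnpla3: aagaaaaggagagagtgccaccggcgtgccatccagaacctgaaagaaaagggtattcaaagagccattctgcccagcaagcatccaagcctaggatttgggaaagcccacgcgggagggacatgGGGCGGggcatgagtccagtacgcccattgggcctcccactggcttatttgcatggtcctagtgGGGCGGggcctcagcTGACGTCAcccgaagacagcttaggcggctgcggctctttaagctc

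Aqp7: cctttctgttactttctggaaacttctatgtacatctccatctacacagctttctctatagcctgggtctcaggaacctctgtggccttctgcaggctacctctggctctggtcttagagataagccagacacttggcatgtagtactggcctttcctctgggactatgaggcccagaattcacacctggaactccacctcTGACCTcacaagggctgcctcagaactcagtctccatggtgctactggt

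On both strands, GGGCGG, the GC box, began 109 and 26 bases before the Pnpla2 start and 125 and 61 bases before that of Pnpla3, and 32.7% of the 32851 windows of this length held it. TGACGTCA, the cAMP response element, began 46 bases before the Pnpla3 start and was held by 1.55% of windows. AGGTCA, a motif of nuclear receptors, was found 49 bases before this Aqp7 start on the opposite strand, as in 14% of windows. Aqp7 has another annotated start, whose window held AGGTCA at 223 and 101 bases before it, also on the opposite strand. The windows of the 2 starts overlap, and the motif at 223 bases is the same site as the one 49 bases before the first start. The E-box CACGTG (6.02% of windows) and the forkhead letters TGTTTAC (3.17%) were in none of these 3 windows. The 3 genes thus shared no single searched motif.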

How the data were processed

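The authors hybridised Cy3-labelled cRNA from liver and WAT to Agilent arrays and deposited a scanner file for each array, 20 in all, made with Agilent Feature Extraction (version 9.5 in the submitters' processing notes, 9.5.3.1 in the files). The values used are the deposited processed intensities. Per the file headers, local background subtraction was off, a spatial trend was subtracted and a multiplicative trend removed, dim spots got surrogate values, and well above background meant 13 SD of the background. The authors did not scale between arrays, and the same intensities were deposited as a table of the series.

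From these, log2 intensity minus the array's 75th percentile was computed after outlier spots were left out, spots of 1 probe were averaged, and a probe was kept where 3 or more of 5 arrays in a group had it well above background. Genotypes were compared within each tissue with limma 3.58.1 (lmFit, eBayes, R 4.3.3, statmod 1.5.0, data.table version 1.17.8), the tissue difference of the genotype effect and the WT(HFD) tissues in 1 fit of all 20 arrays, with Benjamini-Hochberg adjustment over all probes tested. Scripts were tested on simulated data. Single genes also got a two-sided exact permutation test over 252 relabellings. Precision is limited by the 5 arrays per group. Of the 41174 probes, 22951 were matched to a current symbol by accession. Probe positions are those of the array's design on mm7, and promoters came from RefSeq on GRCm38.p6. The genes and lists were chosen with earlier results of these data known. Named are the 9 genes, list genes past the threshold (at most 6 per list and tissue), 11 list genes whatever their values (1 of them is not reported here), and the 3 most similar genes. Alternatives were normexp, quantile normalization, median scaling, other filters, probe choices and fits, slide and replicate blocks, and each array left out, and the closing section gives their effect.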

Additional observations from a re-analysis of the deposited data

Results flagged for a closer look

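Single arrays that stood apart from the other 4 of their group were looked for in the 16 probes and 4 groups, by the gap to the nearest array over the group's range. Of 64 probe and group pairs, 6 were above the critical value of 0.71, where chance gives about 1 in 20, and 0 of the 36 that used a brightest probe were. WT(HFD) WAT array 1 accounted for 5 of them. On that array the second Pnpla2 probe lay low at 2.92, the Mgll probe across the intron low at 4.44 and the second Aqp7 probe low at 0.10, whereas the dim Mgll probe lay high at -2.66 and the Pde3b probe on the opposite strand high at -0.91, the other WT(HFD) arrays of the latter lying between -8.11 and -7.33. The sixth was the Mgll probe across the intron on CD44KO(HFD) liver array 4, high at 5.85.

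The genotype effect in WAT minus that in liver differed from 0 in the interaction test for Aqp7, with 2.56 by the brightest probe and 2.80 by the probe that overlaps it, and for the second Abhd5 probe with 0.86, all by limma. For Aqp7 the liver part rests on CD44KO(HFD) signals above background on 1 of 5 arrays for the first of these probes and on 0 for the other. The brightest Abhd5 probe gave 0.16 and did not pass.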

How the results depend on the processing

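In WAT all 9 genes kept a higher mean in CD44KO(HFD) under each of 25 alternatives (225 of 225 values). These values are not independent, since all reuse the same arrays. The probe brightest in WAT was the brightest overall for all genes but Abhd5. The filters on dim probes, the fit of all 20 arrays, the deposited table of the series and the replicate block leave a gene's mean difference unchanged. The sizes moved under others, as for Abhd5 (0.061 to 0.72) and Adrb3 (0.080 to 1.16). With an array left out they ran from 0.10 to 0.44 for Abhd5, 0.28 to 0.83 for Adrb3 and 0.25 to 0.70 for Lipe. None of the 9 genes passed the test in 23 of the 25 alternatives. With array weights 3 passed (Pnpla2 0.51, Pde3b 0.62, Aqp7 0.51) and 12 pathway list genes, but 2851 probes in all passed then, and with all 20 arrays in 1 fit 2 passed (Pnpla2 0.67, Mgll 0.66) and 10 list genes, with 1647 probes in all. The number of probes called in WAT ran from 3 to 37 over the fits with an array left out, where 0 of the 9 genes and 0 list genes passed, and 3 to 4 genes did not overlap. It was 35 after normexp (17.1% of them higher in CD44KO(HFD), against 27.3% of 11), 19 after centring on the median, 4 with slide as a fixed block, and 3 with no filter on dim probes.

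In liver the number of the 9 genes called, 1, was 0 after normexp, with no filter on dim probes (adjusted p = 0.0732, limma), with a stricter filter, which removes Aqp7, and with the replicate block, and 0 to 1 with an array left out. Aqp7 was lower in CD44KO(HFD) in 23 of 23 alternatives and called in 12 of them, but these 12 are not separate checks. All 23 alternatives reuse the same arrays. The deposited table of the series holds the same intensities, so its fit repeats the main one by construction. Dropping single arrays kept the Aqp7 call in only 2 of 10 fits. With no filter or the replicate block the Aqp7 difference stayed at -1.89 and the call was lost. The count of 18 list genes called in liver became 9 after normexp, 5 with no filter, 28 with slide as a fixed block, 31 with slide as a random block, 8 with the replicate block, 28 with array weights and 2 in the fit of all 20 arrays. With an array left out it ran from 5 to 34, being 16 without WT(HFD) array 4, 34 without CD44KO(HFD) array 3 and 5 to 10 without any of the others. The number of genes whose effect differed between tissues, 1, was 0 after normexp, centring on the median, no filter and slide as a fixed block, 2 with the probe brightest in WAT (Aqp7 and Abhd5), and 0 to 1 with an array left out. The number that differed between the WT(HFD) tissues, 7, ran from 6 to 8.

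Small differences changed sign. In liver these were, after normexp, Pnpla2 (-0.053), Mgll (-0.026), G0s2 (-0.035) and Pde3b (0.035), after quantile normalization Pnpla2 (-0.034), Mgll (-0.044) and G0s2 (-0.026), after centring on the median Pde3b (0.0014), and with the mean of a gene's probes Mgll (-0.036) and Abhd5 (-0.12). With an array left out the ranges in liver were -0.049 to 0.10 for Lipe, -0.014 to 0.12 for Pnpla2, -0.011 to 0.088 for Mgll, -0.015 to 0.13 for Abhd5, -0.065 to 0.21 for G0s2 and -0.12 to 0.21 for Pde3b. The difference between tissues in the Adrb3 effect was -0.19 after normexp. Between the WT(HFD) tissues, Abhd5 gave 0.032 after normexp, 0.027 after quantile normalization, 1.58 with the probe brightest in WAT, and -0.14 to 0.000061 with an array left out, and Adrb3 gave -0.67 after normexp. The Mgll difference between tissues passed after quantile normalization (1.57) and without WT(HFD) WAT array 1 (0.33). The causes were not tested. Replicate numbers did not pair the samples (correlation of deviations -0.21 to 0.092 in WAT and -0.038 to 0.42 in liver), and with the replicate block 0 of the 9 genes passed in WAT.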
